A study of Drosophila melanogaster with 24 samples.

Results

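The enzymes that make catecholamines from tyrosine and lead them into pigment and hardened cuticle were followed here through 8 genes: *ple*, *Ddc*, *Pu*, ebony (*e*), black (*b*), tan (*t*), *yellow-f* and *yellow-f2*. They were chosen by name as members of this pathway, with earlier results of these data known. All 8 were listed in each of the 4 tables, out of 12506 genes listed in at least 1 table and 11457 listed in all 4.

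RNA was sequenced from whole male *w1118* flies, a stock that lacks a working *white* gene, as 24 libraries. Older flies were 20 to 27 days old and younger flies 0 to 7 days old, and all were reared on molasses food. Injured flies were struck in a high-impact trauma (HIT) device and then kept on food for 4 hr or on water for 2 hr, and uninjured flies were kept in the same way without the strikes. This gave the 4 conditions older food, older water, younger food and younger water, each with 3 injured and 3 uninjured libraries.

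The values used here are levels in CPM, read counts scaled to a common library total. For each gene and condition there is 1 mean level, in log2 CPM, over the 6 injured and uninjured libraries together. What the injury itself did to these genes was therefore not analysed here, and a difference between conditions combines flies of both kinds. No value per library was used, so the depth and the spread between replicates are unknown, no difference carries a test, and the order of neighboring levels is a description. Food and water also differ in the time of sampling, and diet and time cannot be told apart. The 4 tables were scaled separately by the authors, so the differences of the 8 genes are set beside those of all genes in the same 2 tables.

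In insects, tyrosine is hydroxylated to dopa and dopa is decarboxylated to dopamine. In neurons dopamine is a transmitter. In the epidermis dopamine and its conjugates with acetate or beta-alanine are oxidized to quinones that crosslink and color the cuticle, which is why these enzymes are known both from body color mutants and from the repair of wounds in the epidermis. Whole flies hold both sources, so a level here sums over neurons, glia, eyes, epidermis and blood cells, and fewer cells of a type cannot be told apart from less RNA per cell.

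The steps to dopamine came first. The gene *ple* encodes tyrosine hydroxylase, the rate-limiting enzyme of dopamine synthesis. Its mean level was 108 CPM in older food, 122 CPM in older water, 165 CPM in younger food and 107 CPM in younger water. Younger food stood apart, and the other three conditions lay within 1.14-fold of each other. The gene *Pu* encodes GTP cyclohydrolase. This enzyme starts the synthesis of tetrahydrobiopterin, the cofactor of tyrosine hydroxylase, and also that of pteridine eye pigments. Its mean level was 127 CPM in older food, 176 CPM in older water, 163 CPM in younger food and 151 CPM in younger water, the narrowest range of the 8 genes at 1.38-fold. *Ddc* encodes dopa decarboxylase, which forms dopamine and also serotonin. Its mean level was 63.5 CPM in older food, 103 CPM in older water, 48.0 CPM in younger food and 77.8 CPM in younger water, so both water conditions were above both food conditions.

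Ebony and black act together. Black supplies beta-alanine by decarboxylating aspartate, and Ebony joins beta-alanine to dopamine. Tan splits the conjugate again, and in the eye it releases histamine, the transmitter of photoreceptors. For *b* the mean level was 106 CPM in older food, 125 CPM in older water, 194 CPM in younger food and 191 CPM in younger water. For *e* it was 39.7 CPM in older food, 55.1 CPM in older water, 94.3 CPM in younger food and 82.3 CPM in younger water. For *t* it was 44.8 CPM in older food, 57.1 CPM in older water, 66.4 CPM in younger food and 68.7 CPM in younger water. In all 3 genes both younger conditions were above both older conditions. The range was widest in *e*, whose highest level was 2.37-fold its lowest.

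The genes *yellow-f* and *yellow-f2* belong to the yellow family and encode dopachrome conversion enzymes, which act on the way from dopa to melanin. The mean level of *yellow-f* was 11.0 CPM in older food, 14.0 CPM in older water, 6.42 CPM in younger food and 8.52 CPM in younger water. That of *yellow-f2* was 30.3 CPM in older food, 47.6 CPM in older water, 38.8 CPM in younger food and 35.3 CPM in younger water. The 2 genes thus ordered the conditions differently, with both older conditions above both younger ones for *yellow-f* alone.

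**Figure D1:**
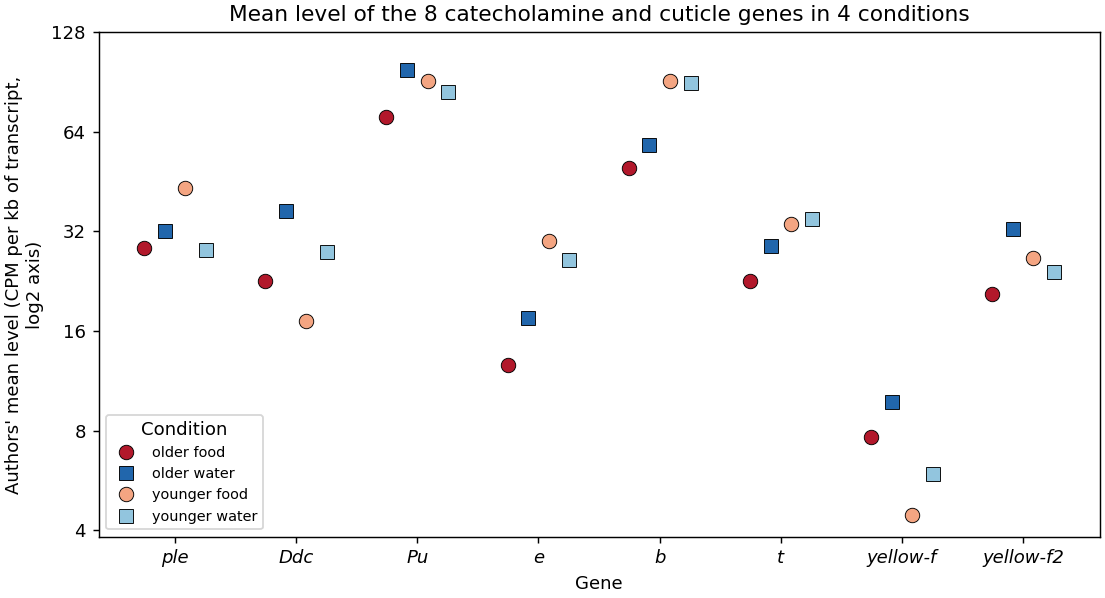
Mean level given by the authors for each of the 8 genes (x axis), in CPM per kb of the longest annotated transcript (y axis, log2 scale), with 1 point for each of the 4 conditions and no error bars because the spread is unknown. *Pu* and *b* had the highest levels per kb and *yellow-f* the lowest, and *e* and *b* were higher in both younger conditions.

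Levels of different genes were compared per kb of the longest annotated transcript. On that scale *Pu* was at 71.0 to 98.3 CPM per kb and *b* at 49.9 to 90.9, and *Pu* lay between percentiles 88.7 and 91.7 of all genes in its tables. The gene *ple* was at 28.1 to 43.2 CPM per kb, *t* at 22.7 to 34.8, *Ddc* at 17.2 to 37.0, *yellow-f2* at 20.7 to 32.6 and *e* at 12.6 to 30.0, ranges that overlap. *yellow-f* was lowest at 4.46 to 9.74 CPM per kb, between percentiles 21.1 and 45.1. The level of *yellow-f2* per kb was 2.70-fold that of *yellow-f* in older food and 3.35-fold in older water, against 5.95-fold in younger food and 4.08-fold in younger water. The log2 ratio of *ple* to *Ddc* per kb was 0.33 in older food, -0.20 in older water, 1.33 in younger food and 0.02 in younger water. The ratio of RNA levels of these 2 genes thus differed most between younger food and older water, and amounts of the enzymes were not measured. In the annotation 88 bases of *Ddc* exons overlap *CG10561* and 95 bases of *yellow-f* exons overlap *CG31342*, both on the opposite strand. The library kit named in the labels does not mark strand, so reads from these overlaps could have gone to either gene.

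The first comparison was between diets. A difference was counted when the 2 mean levels were over 1.5-fold apart, a description with no test. In older flies all 8 genes were lower on food than on water, with a median log2 difference of -0.41, whereas the median over all 11589 genes was 0.14 and 33.5% of them were lower on food. Past 1.5-fold, 2 of the 8 were lower on food and 0 higher, against 2.57% of all genes lower and 15.9% higher. *Ddc* was 1.63-fold lower on food than on water and *yellow-f2* 1.57-fold lower, at percentiles 1.59 and 1.87 of the differences of all genes. *e* and *Pu* were 1.39-fold and 1.38-fold lower, at percentiles 4.32 and 4.47. The smallest difference was that of *ple*, 1.13-fold lower on food.

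In younger flies the 8 genes were divided between the diets. On food 5 were above their level on water and 3 below, with a median log2 difference of 0.07, against 0.04 over all 12100 genes. Past 1.5-fold, 1 was higher on food (5.36% of all genes) and 1 lower (3.61% of all genes). The higher one was *ple*, 1.54-fold, at percentile 95.3 of all genes, and the lower one was again *Ddc*, 1.62-fold, at percentile 2.29. *yellow-f* was 1.33-fold lower on food and the other five genes differed by at most 1.15-fold. Among the 11457 genes in all 4 tables, 0.829% were over 1.5-fold lower on food at both ages, and *Ddc* was the only one of the 8 among them.

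**Figure D2:**
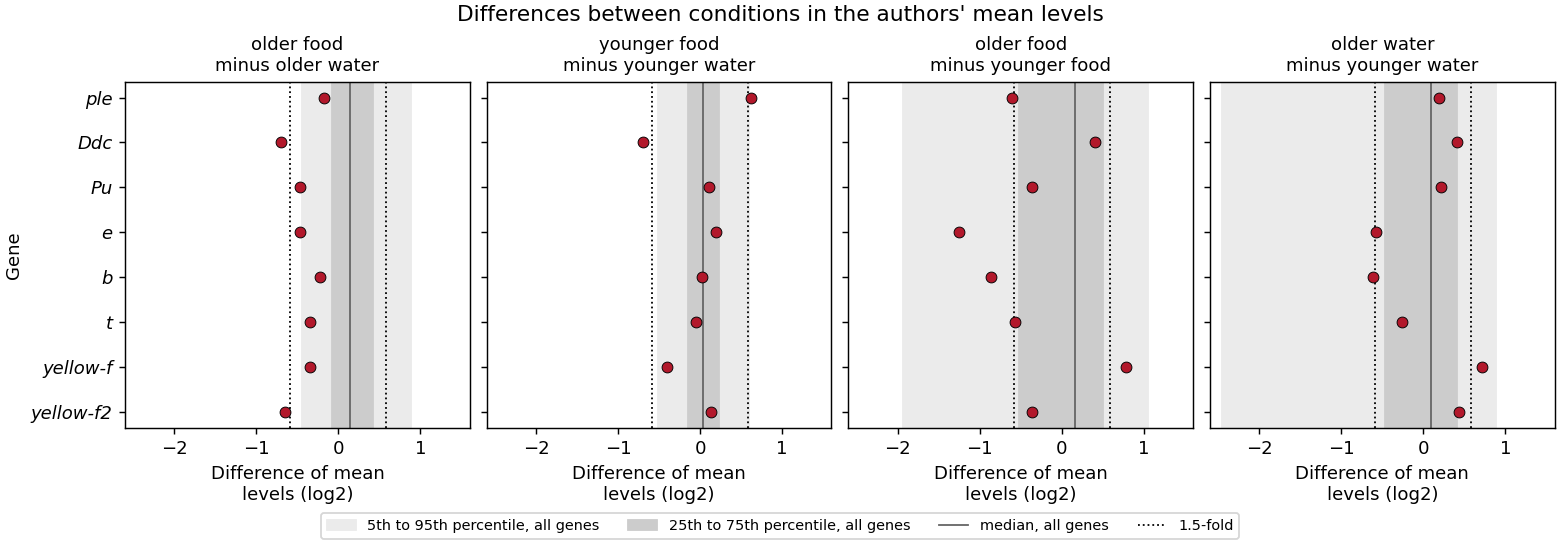
Difference between the authors' mean levels of 2 conditions (x axes, log2), for each of the 8 genes (y axis) in 4 comparisons, with shaded bands for the spread over all genes. *Ddc* lay below the shaded bands on food relative to water at both ages, and *yellow-f* was over 1.5-fold higher in older flies on both diets.

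The way the diet difference changed with age was examined after the levels had been seen. The log2 difference of food minus water in older flies was set against that in younger flies, as the one minus the other. For *ple* it was -0.80, from differences of -0.18 in older and 0.62 in younger flies, and for *yellow-f2* -0.79, from -0.66 in older and 0.14 in younger flies. For *e* it was -0.67 and for *Pu* -0.58. These are at percentiles 1.33, 1.37, 1.98 and 2.90 of the 11457 genes, whose median was 0.13. Past 1.5-fold, 3 of the 8 were lower and 0 higher, against 2.79% and 11.7% of all genes. For *Ddc* it was -0.01, so its lower level on food was of the same size in older and in younger flies.

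The second comparison was between ages. Past 1.5-fold on food, 3 of the 8 genes were lower in older flies and 1 was higher, against 24% and 19.9% of all 11806 genes. On water 1 was lower and 1 higher, against 22.8% and 14.6% of all 11531 genes. These shares lie near those of all genes, so the count over the 8 is no result about the pathway. The genes beyond the threshold on food were *e*, 2.37-fold lower in older flies, *b*, 1.82-fold lower, *ple*, 1.52-fold lower, and *yellow-f*, 1.72-fold higher. On water *b* was 1.53-fold lower in older flies and *yellow-f* 1.64-fold higher, and *e*, 1.49-fold lower, was just short of the threshold, as *t* was on food at 1.48-fold lower. Among the 11457 genes in all 4 tables, 20.3% were past 1.5-fold lower and 11.4% higher in older flies on both diets. Of the 8 genes, *b* and *yellow-f* were. *ple*, *Pu* and *yellow-f2* had log2 differences of opposite sign on the diets, -0.60, -0.36 and -0.36 on food and 0.19, 0.22 and 0.43 on water. *Ddc* was higher in older flies on both, 1.32-fold on food and 1.33-fold on water.

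The neighborhood of the pathway was described through 7 lists with 59 genes, the 8 among them, of which 55 were listed in at least 1 table and 49 in all 4. Of the 49, 7 were past 1.5-fold lower and 5 higher in older flies on both diets, against 20.3% and 11.4% of all genes, shares of the same order. The list of tyrosine supply and breakdown holds *Hn*, the phenylalanine hydroxylase that makes tyrosine, and 6 enzymes that degrade it. All 7 were lower on food than on water in older flies, with a median log2 difference of -0.49, and 2 were past 1.5-fold, against 33.5% of all genes lower and 2.57% past 1.5-fold lower. The 2 were *CG11796*, the 4-hydroxyphenylpyruvate dioxygenase (99.0 CPM in older food and 208 CPM in older water), and *GstZ2* (13.8 CPM in older food and 22.5 CPM in older water). In younger flies 6 of the 7 were lower on food than on water, against 44.3% of all genes, and 0 were past 1.5-fold, against 3.61% lower and 5.36% higher. On water all 7 were higher in older than in younger flies, with a median log2 difference of 0.53, against 55.8% of all genes. Past 1.5-fold were 3 of them, against 14.6% of all genes. On food 4 were higher and 3 lower in older flies, with a median of 0.11. The 4 other genes of tetrahydrobiopterin synthesis, *pr*, *Sptr*, *Dhpr* and *Pcd*, had 0 differences past 1.5-fold in any of the 4 comparisons. Of all genes, 18.4% were past it in either direction between diets in older flies and 8.98% in younger flies. Between ages the shares were 43.9% on food and 37.4% on water.

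Of the 9 other listed genes of amine synthesis and inactivation, 2 were past 1.5-fold lower in older flies on both diets, a share near the 20.3% of all genes. *Dat*, the N-acetyltransferase that inactivates dopamine, was at 94.9 CPM in older food, 70.3 CPM in older water, 154 CPM in younger food and 109 CPM in younger water. *Gad1*, a glutamate decarboxylase that makes the transmitter GABA, was at 161 CPM in older food, 145 CPM in older water, 256 CPM in younger food and 237 CPM in younger water. The dopamine transporter *DAT* takes dopamine back into neurons. Alone among the 4 transport genes, *DAT* was past 1.5-fold lower in older flies on both diets, as were 20.3% of all genes. Its level was 4.61 CPM in older food, 4.70 CPM in older water, 11.5 CPM in younger food and 7.41 CPM in younger water. The serotonin transporter *SerT* was higher in older flies, by log2 differences of 0.22 on food and 0.25 on water. On each diet 3 of the 4 were lower and 1 higher in older flies. Of all genes, 41.0% were lower in older flies on food and 44.2% on water. The vesicular transporter *Vmat* differed by less than 1.5-fold in every comparison. It counts among the 3 lower ones with log2 differences between ages of only -0.06 on food and -0.03 on water.

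Among the 6 other yellow family genes listed in all 4 conditions, *yellow-e* and *yellow-h* were past 1.5-fold lower in older flies on both diets. *yellow-d* was past 1.5-fold higher. Of all genes, 20.3% were likewise lower and 11.4% higher. *yellow-h* was at 7.39 CPM in older food and 5.90 CPM in older water, against 23.7 CPM in younger food and 12.7 CPM in younger water. *yellow-d* was at 143 CPM in older food and 147 CPM in older water, against 55.6 CPM in younger food and 83.0 CPM in younger water. The founding member *y*, needed for black pigment, was listed in the younger tables only, at 30.0 CPM in younger food and 18.1 CPM in younger water. The laccase gene *laccase2*, whose product oxidizes catechols in newly formed cuticle, was at 22.2 CPM in older food and 15.0 CPM in older water, against 83.1 CPM in younger food and 35.0 CPM in younger water. *CG32557*, a multicopper oxidase gene on the same list, differed in the other direction, at 25.0 CPM in older food and 23.7 CPM in older water, against 7.70 CPM in younger food and 12.5 CPM in younger water. On both diets *laccase2* was past 1.5-fold lower in older flies and *CG32557* past 1.5-fold higher, as were 20.3% and 11.4% of all genes. *kkv*, a chitin synthase, was listed at 69.2 CPM in younger food and 23.8 CPM in younger water and at 1.5 CPM in older food, with no row in older water. In younger flies, 5 of the 8 other yellow family genes in both tables were past 1.5-fold higher on food and 1 lower. The shares of all genes were 5.36% and 3.61%. In older flies 0 of 6 were past it. *laccase2* and *kkv* were also past 1.5-fold higher on food in younger flies. On their lists 1 of 4 and 3 of 9 genes were higher, and 3 and 2 lower. A link with the higher *ple* in younger food was not tested.

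**Figure D3:**
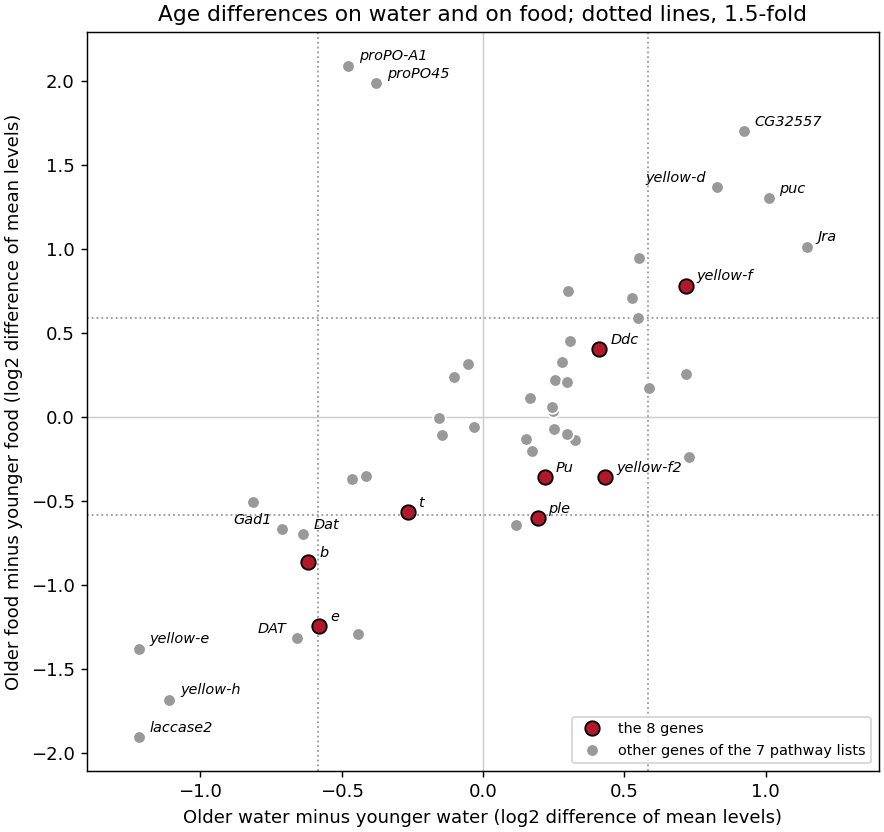
Log2 difference of the authors' mean levels between older and younger flies on water (x axis) and on food (y axis), for the 8 genes (red) and for the other genes of the 7 pathway lists (gray) that are in all 4 tables. *b* and *yellow-f* were past 1.5-fold on both diets, and *laccase2*, *yellow-e* and *yellow-h* were among the genes lower in older flies.

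The prophenoloxidases of blood cells, which oxidize phenols when a clot or wound melanizes, are named here after their values were seen. *proPO-A1* was at 22.6 CPM in older food and 25.2 CPM in older water, against 5.31 CPM in younger food and 35.2 CPM in younger water. *proPO45* was at 27.2 CPM in older food and 28.3 CPM in older water, against 6.88 CPM in younger food and 36.7 CPM in younger water. Both were thus low in younger food alone, the condition in which *ple* was highest and *Ddc* and *yellow-f* were lowest. A link between them was not tested, and the share of all genes with such an order was not counted. *proPO59*, another prophenoloxidase, had no row in younger food and was low elsewhere, at 2.18 CPM in older food, 3.20 CPM in older water and 1.63 CPM in younger water.

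Of the wound regulators, *Jra*, the fly Jun, was the only one past 1.5-fold lower on food at both ages, 1.91-fold in older and 1.74-fold in younger flies, as were 0.829% of all genes. *Msp-300*, which encodes a nesprin, was the only one past 1.5-fold higher on food at both ages, 1.57-fold in older and 1.51-fold in younger flies, as were 2.04% of all genes. *Jra* was also 2.02-fold higher in older than in younger flies on food and 2.21-fold higher on water. *puc*, a phosphatase that restrains Jun kinase, was 2.46-fold and 2.02-fold higher in the same 2 comparisons. Of all genes, 11.4% were likewise past 1.5-fold higher in older flies on both diets. *grh*, the transcription factor that activates *ple* and *Ddc* at epidermal wounds of fly embryos, was at 38.3 CPM in older food, 31.1 CPM in older water, 42.0 CPM in younger food and 28.0 CPM in younger water.

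Likeness of pattern was measured as the Euclidean distance between the 4 mean levels, in log2, after each gene's own mean was subtracted. Nearest to *Ddc* among 11456 genes were *AttC*, an antibacterial attacin (distance 0.08), *CG8738* (0.10) and *CG5189* (0.11). Nearest to *ple* were *smp-30* (0.09), *Cpn* (0.10) and *CG18446* (0.10). With 4 points per gene such distances are small for many genes. The distance between *ple* and *Ddc* was 1.17, and 74.0% of all genes were nearer to *ple* than *Ddc* was. The member nearest to *Ddc* was *yellow-f* (0.47, with 4.38% of genes nearer) and the one nearest to *ple* was *Pu* (0.44, with 5.87% nearer).

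Markers of sex and cell type differed between the conditions as well. Of 5 female markers, *Yp1*, *Yp2* and *Yp3* were listed in younger food at 43.1 to 56.7 CPM, only *Yp3* was listed in older food (15.6 CPM) and in younger water (12.6 CPM), *Yp1* and *Yp3* were in older water (11.2 and 23.3 CPM), and the vitelline membrane genes *Vm26Aa* and *Vm26Ab* were in no table. All 5 male markers were listed in every table, and each was lower in older than in younger flies on both diets. Of all genes, 41.0% were lower in older flies on food and 44.2% on water. Past 1.5-fold lower were 4 of the 5 male markers on each diet, against 24% of all genes on food and 22.8% on water. In older flies the 3 photoreceptor markers were lower on food than on water, as were 33.5% of all genes. The log2 differences were -0.37 for *ninaE*, -0.21 for *Arr2* and -0.17 for *trp*. In younger flies these differences were -0.59 for *ninaE*, past 1.5-fold, -0.53 for *Arr2* and 0.17 for *trp*. Between older and younger flies on food they were 0.94 for *ninaE*, 0.68 for *Arr2* and -0.13 for *trp*, and on water 0.72, 0.35 and 0.21. Of the 3 glia markers *repo*, *alrm* and *Gs2*, 1 was past 1.5-fold in any comparison, *repo*, with a log2 difference of 0.74 between older and younger flies on food. In that comparison 19.9% of all genes were past 1.5-fold higher. All 5 blood cell markers were lower on food than on water at both ages, against 33.5% of all genes in older and 44.3% in younger flies. Past 1.5-fold were 0 of the 5 in older and 2 in younger flies, against 2.57% and 3.61% of all genes lower. The 2 were *proPO-A1* and *proPO45*, the prophenoloxidases already named above, and not further genes. On food all 5 were higher in older than in younger flies, 3 past 1.5-fold, against 59.0% and 19.9% of all genes. The 3 were the crystal cell markers *proPO-A1*, *proPO45* and *lz*, the last at 2.84 CPM in older food and 1.83 CPM in younger food. The plasmatocyte markers *Hml* and *nimC1* were not past it, with log2 differences of 0.35 and 0.53. On water 3 were higher and 2 lower in older flies. Past 1.5-fold higher were 2 of them, *lz* and *Hml*, against 14.6% of all genes. The part of these markers in the differences of the 8 genes was not tested.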

How the data were processed

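RNA from whole male flies was sequenced as 24 libraries. Before deposit, the authors passed the reads through Skewer for trimming, STAR 2.4.2a for alignment (build dm3, per the labels) and RSEM 1.2.22 for expected counts per gene, dropped genes of low or empty value and ran edgeR 3.10.5 on injured against uninjured flies. The annotation and the normalization within that step are not given in the sources used here. Each of the 4 deposited tables holds a mean level per gene (log2 CPM), together with the authors' fold change, likelihood ratio, p-value and FDR for injured against uninjured flies. Only the deposited log2 CPM values were used, since the other columns are the authors' own comparison. The condition of each table was read from its name. The linear levels of each table summed to the expected total of CPM values within 0.3%, and 292 empty rows of older water were left out.

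The fold threshold of 1.5, the lists and their matching by current and older gene symbols were set here. The 8 genes and the lists were chosen with earlier results of these data known. Named genes are the 8, list genes past 1.5-fold the same way in both diet or both age comparisons, up to 5 list genes of the highest level, and the 3 nearest to *ple* and *Ddc*. Any list gene outside this rule was picked with its values in view. The longest transcript of the BDGP6 annotation (Ensembl release 115), matched for 98.8% of genes, gave lengths only. The code for the contrasts was checked on simulated levels with known shifts and no noise, which says nothing about error in the data. Depth per library is unknown, and the levels carry no error. Python 3.11.15, numpy 2.4.6, pandas 2.3.3 and matplotlib 3.10.9 were used.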

Additional observations from a re-analysis of the deposited data

How the results depend on the processing

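No paired analysis was possible because the tables were read for 1 mean level per condition, in which the replicate numbers no longer exist, and for the same reason no replicate could be left out. The number of the 8 genes past the threshold depended mainly on the threshold. At 2-fold it was 0 for older food against older water, 0 for younger food against younger water, 1 for older food against younger food, 0 for older water against younger water and 0 for the change of the diet difference with age, where 3.15%, 1.96%, 24.1%, 21.4% and 2.12% of all genes were past it in either direction. When differences over 25% were counted it was 6 for older food against older water, 8 for older food against younger food and 5 for older water against younger water, shares to be read beside 41.1%, 67.9% and 60.9% of all genes. Centering on the median of all genes, which was 0.14 in log2 for older food against older water, 0.04 for younger food against younger water, 0.16 for older food against younger food and 0.09 for older water against younger water, raised the count to 4 for older food against older water, all 4 lower on food, with 15.3% of all genes past the threshold in either direction. It gave 5 (4 without centering) for older food against younger food, 3 (2 without) for older water against younger water and 4 (3 without) for the change of the diet difference with age, with 39.1%, 35.0% and 11.2% of all genes past it. Of the 32 differences of single genes, 1 changed sign under this centering and none of those past 1.5-fold did. Rescaling each table to the same total, keeping genes in all 4 tables and a minimum of 1 log2 CPM left the counts as they were. The alternatives for the change of the diet difference with age were chosen after seeing the data.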
